A study of Mus musculus with 2 samples.

Results

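The genes of sterol and fatty acid synthesis were compared between bone-marrow-derived dendritic cells of wild-type mice and of mice lacking the microRNA miR-155, both exposed to lipopolysaccharide (LPS). The group was defined by gene name: cholesterol synthesis, fatty acid synthesis, desaturation and activation, and the SREBP and LXR regulators with some of their targets, 43 genes in all. A probe set that names a single gene was found for 39 of them, among 18193 genes so named on the array. Above the floor set for measurement, 38 of the 39 were measured, out of 11878 measured genes. All 38 were above the floor on both arrays. Acat2, Nr1h2, Soat1 and Acsl1 were not analysed here, and Dhcr7, the reductase of a final step to cholesterol, lay below the floor in both genotypes.

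The control sample was wild type + LPS and the other miR155-/- + LPS, both of strain C57BL/6J and both represented by 1 Affymetrix array. Marrow cells of either genotype were cultured with 20 ng/ml GM-CSF for 7 days and then given 10 ng/ml LPS. No untreated cells were measured, so the response to LPS itself is not part of these data. How long LPS was applied and how many mice were used are unknown here, and the growth protocol calls the cells macrophages where every other label calls them dendritic cells. With 1 array a genotype there is no spread between replicates and no test, and every difference below describes these 2 arrays.

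Cholesterol is built from acetyl-CoA through mevalonate, farnesyl diphosphate and squalene, and fatty acids from acetyl-CoA through malonyl-CoA. SREBP transcription factors drive most of these genes when membrane sterol is low: Scap carries the SREBP precursor out of the endoplasmic reticulum, and the Insig proteins hold it back when sterol is plentiful. LXR receptors respond to oxysterols, raise cholesterol efflux and also act on fatty acid synthesis. In macrophages and dendritic cells, Toll-like receptor signals are known to change this lipid metabolism.

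The microRNA that the knockout cells lack is given here because its seed, bases 2 to 8 in capitals, is the part that pairs with target transcripts. Both mature arms come from the hairpin at Mir155 (RefSeq, GRCm38.p6, plus strand), the 5p arm at chr16:84714143-84714165 and the 3p arm at chr16:84714182-84714202. Target sites in the lipid genes were not analysed here.
miR-155-5p: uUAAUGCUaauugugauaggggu
miR-155-3p: cUCCUACCuguuagcauuaac
The host transcript of this microRNA, Mir155hg, had a normalized signal of 1136 in wild type and 159 in the knockout, 7.13-fold lower, the direction the labels call for. The position of its probe set relative to the deletion was not analysed here.

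Signals are quantile-normalized intensities in arbitrary units, and a difference is the knockout's log2 signal minus that of wild type. Values under the median of all normalized values, an intensity of 67.6, were set to it, and this floor is not a detection call. The only error that could be measured was how far a gene's own probe sets disagreed, an SD of 0.29 log2 units (1.23-fold) over 11653 probe sets of 4410 genes. It holds no variation between mice or cultures. The number of arrays limits the precision.

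More lipid genes were higher than lower in knockout cells relative to the bulk of genes, and few differed by much. Of the 38 measured genes 26 were higher and 12 lower, 68.4% higher against 51.5% of all measured genes. Their median difference was 0.11, against 0.01 over all measured genes. At least 1.5-fold higher were 3 genes, Scd2, Lss and Fads1 (7.89% of the members, against 4.57% of all measured genes), and 1 gene, Idi1, was at least 1.5-fold lower (2.63% against 4.10%). These shares rest on few genes, and in such bulk RNA a change in the mix of cells cannot be told apart from a change of RNA per cell. Beyond the probe set SD, 12 genes were higher (31.6%, against 17.0% of all measured genes) and 3 were lower (7.89%, against 15.7%), and 23 lay within it. Only Scd2 passed 2-fold, where 0.572% of all measured genes were as much higher, and no member was 2-fold lower, where 0.615% were.

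The directions are relative to the bulk of genes, because the deposited signals had no common scale. In deposited intensity 37 of the 38 genes were higher in the knockout, the exception being Idi1, with a median of 0.70 where the median measured gene was higher by 0.54. With scaling on hybridisation controls 35 genes were higher, with a median of 0.39 against 0.23 for the median measured gene. With centring on the array median 32 were higher, with a median of 0.29 against 0.14. Set against the median measured gene of the same scaling, 28, 27 and 27 of the 38 lay above it, with 26 higher after quantile normalization. Deposited, control-scaled and centred values differ by a constant, so apart from the floor they are not separate checks.

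**Figure D1:**
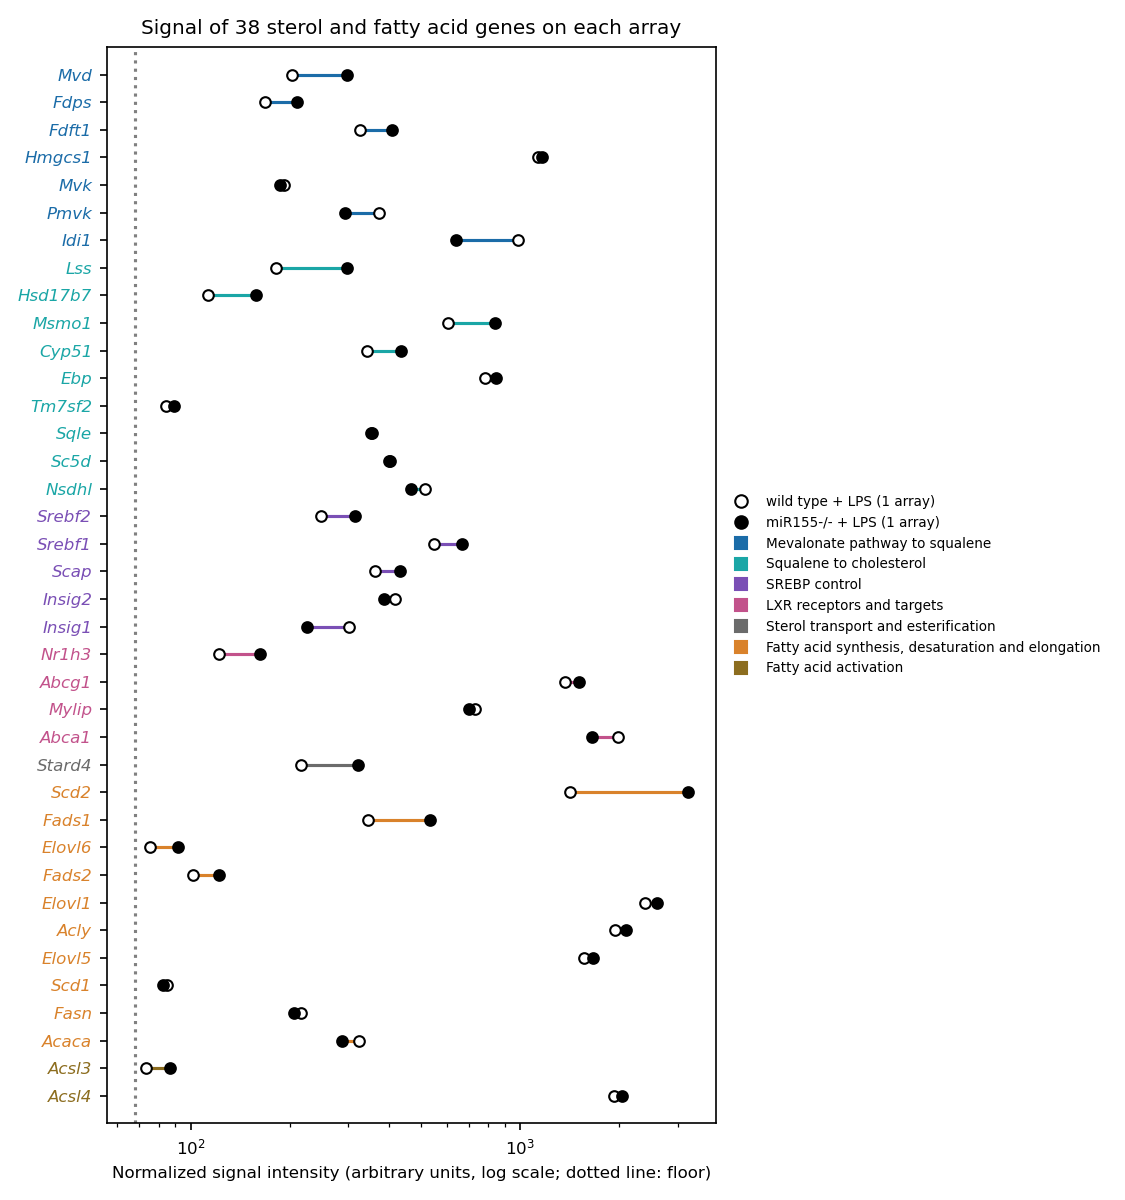
Normalized signal intensity (log axis, arbitrary units) of the 38 measured genes in wild type (open circles) and knockout (filled circles), joined by a line coloured by role, with the floor of 67.6 dotted. The longest line is that of Scd2, from 1420 to 3227, and 23 of the 38 pairs differ by less than the probe set SD.

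The early steps, which make squalene from acetyl-CoA, held members on both sides. Of 8 genes listed, 7 were measured, 4 of them higher and 3 lower (57.1% higher, against 51.5% of all measured genes). Their median was 0.05. Mvd, the decarboxylase that makes isopentenyl diphosphate, went from 203 in wild type to 298 in the knockout, a difference of 0.56 (1.47-fold), just short of the 1.5-fold rule. Its other probe set gave 0.42. Idi1, the isomerase acting on that product, went the other way, from 985 to 639, a difference of -0.62 (1.54-fold lower). The second Idi1 probe set was level, at 565 and 572 (0.02), so its lower signal rests on a single probe set. At the probe sets used, these adjacent enzymes of the pathway had opposite signs, which the second Idi1 probe set did not share.

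Farnesyl diphosphate synthase (Fdps) had signals of 169 and 211, a difference of 0.32. Squalene synthase (Fdft1) had 326 and 407, also 0.32, and its second probe set gave 0.16. Phosphomevalonate kinase (Pmvk), with a single probe set, was lower, at 374 and 294 (-0.35). These 3 lay just outside the probe set SD. Mevalonate kinase (Mvk) had signals of 192 and 187, and its second probe set was higher by 0.35. Hmgcs1, which makes the HMG-CoA that enters the pathway, had 1129 and 1166, and its 4 measured probe sets ranged from -0.47 to 0.10, with 2 in either direction. The probe sets of both genes thus pointed both ways.

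From squalene to cholesterol the measured genes leaned toward the knockout. Of 10 listed, 9 were measured, 7 higher and 2 lower (77.8% higher, against 51.5% of all measured genes), with a median of 0.11. By more than the probe set SD 4 were higher and none was lower, where 17.0% of all measured genes were higher and 15.7% lower. These counts rest on few genes. Lanosterol synthase (Lss), which closes the sterol rings, had signals of 181 and 298, a difference of 0.72 (1.64-fold). That value came from a probe set ending in _s_at, a class that may match more than 1 transcript. Another Lss probe set was under the floor in wild type and just above it, at 70.7, in the knockout, so its difference of 0.06 is only a lower bound. The third lay below the floor on both arrays. Averaged over probe sets the Lss difference was 0.71, also a lower bound, since the averaged wild-type value lay under the floor. No other Lss probe set was above the floor on both arrays.

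Cyp51, the lanosterol demethylase that acts next, had signals of 343 and 435 (0.34), and its second measured probe set, with 87.6 and 162, gave 0.89 (1.85-fold). Msmo1, a methylsterol oxidase, had 602 and 837, a difference of 0.48 (1.39-fold). Hsd17b7, a ketosteroid reductase of the same stretch, had 113 and 158, a difference of 0.49 (1.40-fold). Its other measured probe sets were under the floor in wild type, so they could count only as higher. Beyond the probe set SD in this stretch were thus Lss, Cyp51, Msmo1 and Hsd17b7. The remaining enzymes of the stretch lay within the probe set SD. Squalene epoxidase (Sqle), a rate-controlling step, had 352 and 356. The sterol desaturase gene Sc5d had 402 and 399, the isomerase gene Ebp 784 and 843, the reductase gene Tm7sf2 84.0 and 89.2, and the dehydrogenase gene Nsdhl 513 and 466. Tm7sf2 lay close to the floor in both genotypes.

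Of the 5 genes of SREBP control 3 were higher and 2 lower (60% higher, against 51.5% of all measured genes). Beyond the probe set SD lay only Srebf2, which was higher, and Insig1, which was lower. Srebf2, which encodes the SREBP most tied to cholesterol synthesis, had signals of 248 and 316 (0.35), and its second probe set gave 0.32. Srebf1, whose SREBP acts more on fatty acid synthesis and which is also an LXR target, had 547 and 664 (0.28) at its single probe set. Scap, the escort protein, had 362 and 430 (0.25). The differences of Srebf1 and Scap were smaller than the probe set SD. Insig1, the retention protein that is itself induced by SREBP, was lower, at 302 and 225, a difference of -0.42 (1.34-fold). It had 1 probe set. Insig2, its homologue, had 416 and 385 (-0.11), and its 3 probe sets did not share a direction, ranging from -0.25 to 0.23. The median of these 5 regulators was 0.25, and relative to the median measured gene it was between 0.16 and 0.29 in all 9 ways of processing. Several of these ways left the 5 differences unchanged or differ by a constant, so they are not separate checks.

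Stard4, a soluble protein that moves cholesterol between membranes and a known SREBP target, gave 216 in wild type and 323 in the knockout, a difference of 0.58 (1.49-fold). All 3 of its probe sets were higher, by 0.49 to 0.66. It was thus among the most even of the larger differences, although it fell just under the 1.5-fold rule.

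LXR and its targets were split. Nr1h3, the gene of LXR alpha, had 122 and 162, a difference of 0.41 (1.33-fold), at its single probe set. Abca1, which exports cholesterol to apolipoprotein acceptors, was lower, at 1979 and 1656 (-0.26). Its other probe sets gave -0.48 and -0.60, so that 3 of 3 were lower, the only gene of the group with more than 1 measured probe set for which all were. Abcg1, which exports cholesterol to lipoprotein particles, was higher, at 1363 and 1509 (0.15), with 0.51 at its second probe set. Mylip, a ubiquitin ligase that removes lipoprotein receptors, had 730 and 700. The pair of efflux transporters, both induced by LXR, therefore had opposite signs on these arrays. At the probe sets used, both differences were smaller than the probe set SD. In deposited intensity and with scaling on hybridisation controls Abca1 was higher in the knockout (0.34 and 0.02), but by less than the median measured gene.

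**Figure D2:**
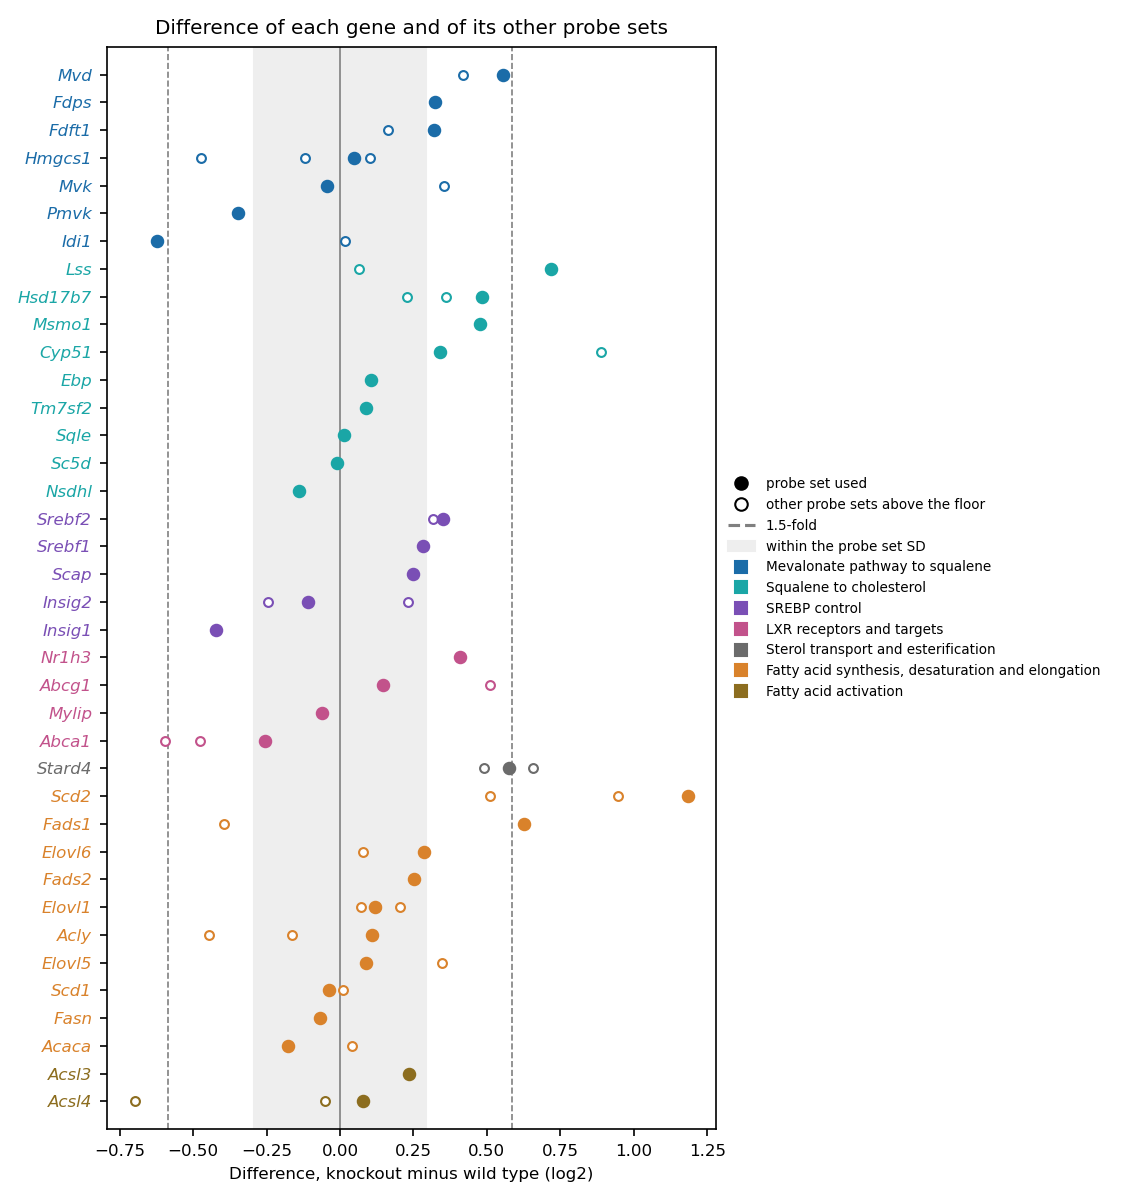
Difference between genotypes (log2, knockout minus wild type) of each measured gene, filled for the probe set used and open for its other probe sets above the floor, with 1.5-fold dashed and the probe set SD of 0.29 shaded. All probe sets of Scd2 and Stard4 lie to the right of the shaded band, those of Abca1 lie left of 0, and those of Fads1, Acly and Acsl4 fall on both sides.

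The desaturases held the largest difference among the 38 genes. Scd2, a stearoyl-CoA desaturase that puts the first double bond into saturated fatty acids, read 1420 in wild type and 3227 in the knockout, a difference of 1.18 (2.27-fold). Its deposited intensities were 1151 and 3916. The second Scd2 probe set had 245 and 472 (0.94), and the third was under the floor in wild-type and at 96.2 in knockout cells, at least 1.42-fold higher. Over the 9 ways of processing, the Scd2 difference relative to the median measured gene lay between 1.01 and 1.23, past 2-fold each time. Its paralogue Scd1 did not share this: it had 84.7 and 82.5, close to the floor, with differences of -0.04 and 0.01 at its 2 probe sets. A signal so near the floor says little about Scd1.

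Fads1, a desaturase of polyunsaturated fatty acids that forms arachidonic acid, had signals of 345 and 533, a difference of 0.63 (1.54-fold). Its second probe set, with 143 and 108, was lower by 0.40 on the log2 scale. Averaged over probe sets, the Fads1 difference was 0.12. Fads2, the desaturase that precedes it, had 102 and 122 (0.25). Thus only Scd2 among the desaturases had a difference that its other probe sets shared.

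Fatty acid synthesis itself differed little between genotypes. Fatty acid synthase (Fasn) had signals of 216 and 206 (-0.07). Acetyl-CoA carboxylase (Acaca), which makes malonyl-CoA, had 324 and 287 (-0.18). ATP citrate lyase (Acly), the source of cytosolic acetyl-CoA, had 1939 and 2091 at the probe set used (0.11), but its other measured probe sets gave -0.16 and -0.44. Its direction thus depended on the probe set. With all its probe sets averaged the Acly difference was 0.51, an average that includes 3 probe sets below the floor.

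The elongases were level or slightly higher. Elovl1, which extends very long saturated chains, had 2392 and 2597 (0.12), and its 4 probe sets were all higher, by 0.07 to 0.20. Elovl5, which extends polyunsaturated chains, had 1564 and 1665 (0.09), with 0.35 at its second probe set. Elovl6, which extends palmitate, had 75.2 and 91.7 (0.29) near the floor. Of the acyl-CoA synthetases that activate fatty acids, Acsl3 had 73.4 and 86.4 (0.23), also near the floor, and Acsl4, which prefers arachidonic acid, had 1926 and 2034 (0.08). The other Acsl4 probe sets gave -0.05 and -0.70. All elongases and synthetases measured here lay within the probe set SD at the probe set used.

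**Figure D3:**
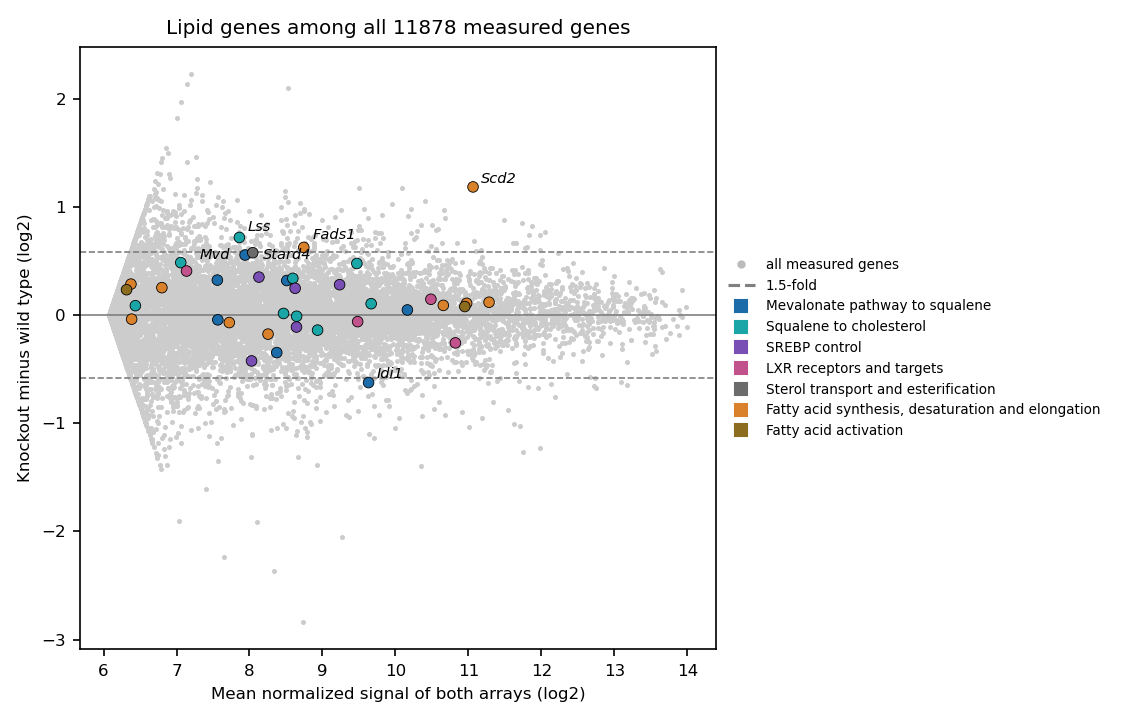
Difference between genotypes (log2) against the mean normalized signal of both arrays (log2) for all 11878 measured genes (grey) and the 38 lipid genes (coloured by role), with 1.5-fold dashed. Scd2 stands at the upper edge of genes of like signal, while most lipid genes lie inside the grey cloud.

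Agreement between a gene's probe sets was counted next. Probe sets above the floor in the knockout alone could count only as higher, which held for 7 of the 71 measured probe sets of the group, while 0 were above it in wild type alone. Over the 64 probe sets above the floor on both arrays, 42 were higher. Of the 17 members with more than 1 such probe set, 10 had all of them on the same side, 9 higher and 1 lower (58.8%, against 47.4% of 4410 such genes). In the other 7 the probe sets were mixed. The shares that were higher among all such probe sets and genes were not counted. The 42 of 64 and the 9 against 1 therefore have no background here. The probe set used ended in _x_at for 5 members (Hmgcs1, Fdft1, Hsd17b7, Acly and Elovl1) and in _s_at for 3 (Mvd, Lss and Acsl3).

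Promoter sequences were examined for motifs of SREBP and of factors acting with it. RefSeq promoters of GRCm38.p6, from 250 bases before to 50 after a start site, were found for 35 of the 43 genes. Abcg1, Fads1, Fdft1, Fdps, Scd1, Scd2, Sqle and Stard4 had none in the table. Searched on both strands were the sterol regulatory element TCACNCCAC, the NF-Y box CCAAT and the E-box CACGTG; the first and the last both hold CAC, so matches could share bases. CCAAT was present in 26 of the 35 genes (74.3%), against 41.1% of 27025 genes and 37.4% of 32851 promoters. The E-box was present in 7 (20.0%, against 8.09% of genes and 7.15% of promoters). The sterol regulatory element was present in 2, Hmgcs1 and Acsl1 (5.71%, against 1.44% and 1.24%). These shares were not matched for base composition. They describe a list chosen by pathway and SREBP control, and not the difference between genotypes.

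The following stretches show the sterol regulatory element of Hmgcs1 and the CCAAT box nearest to the gene in 3 genes that were higher in the knockout and 2 that were lower. The motif is in capitals, and a box on the other strand reads ATTGG. They lie at chr13:119690189-119690247 (Hmgcs1, plus strand), chr10:76531516-76531564 (Lss, plus), chr8:122443423-122443476 (Mvd, minus), chr8:64733602-64733660 (Msmo1, minus), chr13:8885565-8885605 (Idi1, plus) and chr5:28071169-28071227 (Insig1, plus).
Hmgcs1: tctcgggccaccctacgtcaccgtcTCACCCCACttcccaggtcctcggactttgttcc
Lss: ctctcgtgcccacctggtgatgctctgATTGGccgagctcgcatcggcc
Mvd: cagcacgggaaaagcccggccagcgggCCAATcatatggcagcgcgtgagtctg
Msmo1: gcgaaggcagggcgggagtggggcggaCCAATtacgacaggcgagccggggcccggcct
Idi1: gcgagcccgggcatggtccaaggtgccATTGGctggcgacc
Insig1: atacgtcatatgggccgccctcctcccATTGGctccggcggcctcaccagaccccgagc
A CCAAT box was thus found in genes of either direction. Among the 30 measured members with a promoter, 14 of the 23 with CCAAT were higher, with a median difference of 0.09, and 5 of the 7 without it, with a median of 0.25. A match is a run of letters and not a measured binding site.

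Other genes of the same pathways were read from lists that hold none of the members. Of 35 further sterol genes 27 were measured, and 18 of these were higher and 9 lower (median 0.06). That is 66.7% higher, against 51.5% of all measured genes. Of the 27, 2 were at least 1.5-fold higher and none as much lower, where 4.57% of all measured genes were higher and 4.10% lower. These counts rest on few genes. Lipa, the lysosomal acid lipase that frees cholesterol from its esters, had signals of 2864 and 4424 (0.63, 1.54-fold). Nceh1, a neutral hydrolase of cholesterol esters, had 291 and 459 (0.66, 1.58-fold). Both genes had 3 of 3 probe sets higher, and both act in releasing stored or ingested cholesterol.

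Of 38 further fatty acid genes 30 were measured, 13 higher and 17 lower, with a median of -0.05. That is 43.3% higher, against 51.5% of all measured genes. Acss2, a cytosolic enzyme that makes acetyl-CoA from acetate and a known SREBP target, had 257 and 529, a difference of 1.04 (2.06-fold), with 2 of 2 probe sets above the floor on both arrays higher. The elongase gene Elovl7 had 129 and 238 (0.88, 1.85-fold), but only 1 of its 3 probe sets above the floor on both arrays was higher. Lower were Hilpda, a lipid droplet protein that restrains lipolysis, at 521 and 253 (-1.04, 2.06-fold), and Dgat2, which makes triglyceride, at 886 and 587 (-0.60, 1.51-fold) with both probe sets lower. Thus 2 of the 30 were at least 1.5-fold higher and 2 as much lower. Over all measured genes these shares were 4.57% and 4.10%, and the counts here rest on few genes.

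Cell type markers were read on the same arrays, since lipid genes differ between cell types. All 14 dendritic cell markers were above the floor on at least 1 array, 10 of them lower in the knockout, with summed signals of 51271 and 47598. Of 10 macrophage and monocyte markers measured 7 were higher (38833 and 42065 summed), of 4 osteoclast markers 3 (4046 and 4748) and of 8 proliferation genes 6 (5560 and 6610). Over all measured genes 51.5% were higher, and each marker list here is short. All 5 measured B and plasma cell markers were lower (1621 and 438 summed), as were all 6 of mast cells and basophils (3317 and 1853). In both lists 3 genes were under the floor in the knockout, so they could count only as lower and enter its sum at the floor. Averaging probe sets moved the B and plasma cell median from -1.91 to -0.55. Of 10 granulocyte markers 7 were lower (11697 and 13843 summed), of 3 T and NK cell markers 1 (475 and 372), with Cd3e, Cd3d and Cd3g below the floor, and of 3 stromal markers 2 (284 and 243), with the adipocyte gene Adipoq below it. The dendritic cell marker Flt3, Cd4 and the stromal gene Col1a1 were above the floor in the knockout alone, so they could count only as higher. The stromal gene Lum and the granulocyte gene Ltf were above it in wild type alone, so they could count only as lower. The macrophage markers Mrc1 (1.06), Ccr2 (0.84) and Mertk (0.81), the osteoclast gene Ctsk (1.09), the dendritic cell markers Naaa (0.84) and Irf8 (-0.66), and Rrm2 (0.82), Mcm4 (0.81) and Cdc20 (-0.83) among proliferation genes were past 1.5-fold. Lower by as much, with "at least" where the knockout was under the floor and the gene could count only as lower, were Ighm (-2.37, although 3 of its 4 probe sets above the floor on both arrays were higher), Jchain (-2.24), Mzb1 (at least 3.75-fold), Mcpt8 (at least 2.68-fold), Cpa3 (at least 2.21-fold), Hdc (-0.90), Ltf (at least 1.65-fold) and Thy1 (-1.12). The 18S ribosomal RNA controls, which depend on how RNA was prepared, read 95.1 to 126 in deposited intensity in wild type and 389 to 582 in the knockout. The part of these markers and controls in the lipid gene differences was not tested.

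The sign of most lipid genes did not hang on the processing once the shift of the whole array was set aside. Relative to the median measured gene, 22 of the 38 genes were higher and 8 lower in every way of processing that measured them, and 8 changed sign. The 8 lower ones were Idi1, Pmvk, Insig1, Insig2, Abca1, Acaca, Nsdhl and Fasn. Those that changed sign were Mvk, Sqle, Tm7sf2, Sc5d, Mylip, Acly, Scd1 and Acsl4, all within the probe set SD in the main values. Scaling alternatives that differ by a constant are not separate checks of a sign. Leaving out the floor is not one either, since it left the differences of the 38 genes unchanged. How many of all measured genes kept their sign was not counted, so these counts do not set the group apart.

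**Figure D4:**
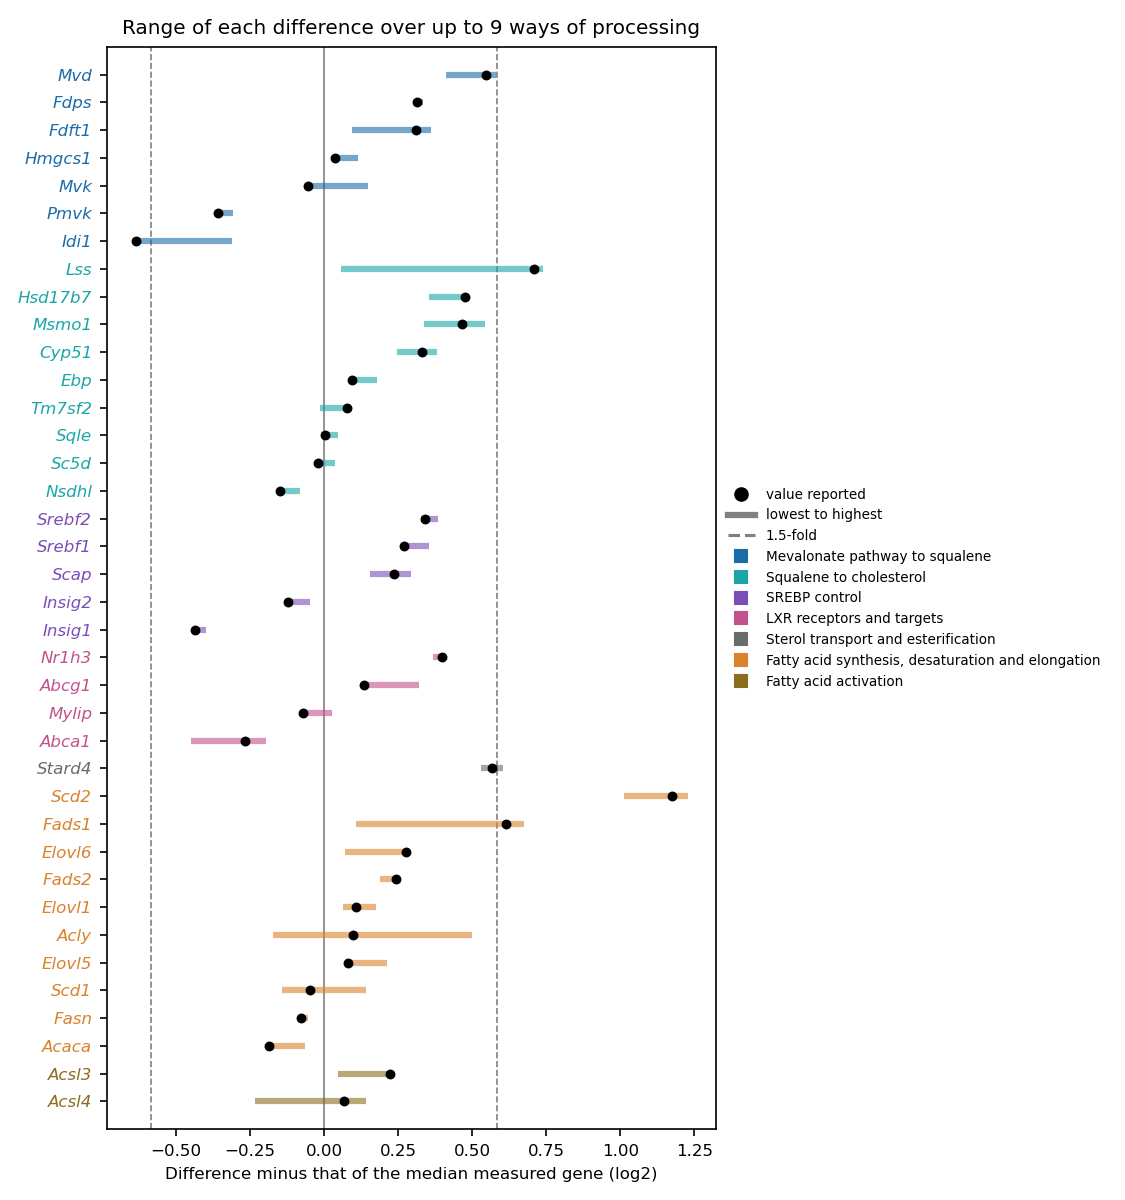
Lowest to highest difference of each gene over up to 9 ways of processing (coloured bars, log2, relative to the median measured gene of each) with the value reported as a dot and 1.5-fold dashed. Only the bar of Scd2 lies wholly beyond 1.5-fold, and the bars of Lss, Fads1 and Idi1 reach back inside it, that of Lss down to a lower bound set by the floor.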

How the data were processed

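The authors deposited 1 table of linear signal intensity for 45101 probe sets on each of 2 arrays, as the values show; the software behind it, its detection calls and its scaling are unstated in the sources used here. Per the labels' protocols, biotinylated cRNA was made from 6 ug of total RNA. Over 45037 probe sets, leaving out 64 controls, median intensity was 58.4 in wild type and 78.3 in knockout (a gap of 34.1%). Because the gap exceeded 10%, log2 values were quantile normalized, which removes any difference in total signal. Of these probe sets 34945 named 1 gene, 932 several, and 9160 were unnamed here; 18032 of 18193 genes matched the RefSeq gene table. A gene was represented by its probe set with the highest mean, chosen without regard to the difference, and measured if above the floor (the median) on at least 1 array. Size rules were 1.5-fold and 2-fold. The members, lists and rules were chosen with earlier results of these data known. All members are named; of the other pathway and marker lists, those at least 1.5-fold different, beside counts and defining markers under the floor. Motifs were chosen after the differences were seen. Alternatives were centring on the median, no scaling, scaling on 18 hybridisation controls, loess (span 0.3), a floor at the 75th percentile, no floor, averaged probe sets, and no _x_at or _s_at probe sets. The procedure was tested on simulated data. Python 3.11.15, numpy, pandas and statsmodels were used.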

Additional observations from a re-analysis of the deposited data

How the results depend on the processing

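The count of 2-fold differences changed only without scaling, and the median of the 38 genes lay 0.08 to 0.17 above that of all measured genes in all 9 ways of processing. On deposited values that median was 0.70, with 25 genes past 1.5-fold and 7 past 2-fold higher and 0 past 1.5-fold lower. Of all measured genes 43.5% were at least 1.5-fold higher there and 0.498% as much lower. The share of all genes past 2-fold on deposited values was not counted. The medians there were 0.65 for the steps to squalene, 0.72 from squalene to cholesterol, 0.83 for SREBP control, 0.66 for LXR, 1.14 for Stard4, 0.70 for fatty acid synthesis and 0.63 for fatty acid activation, of which 0.54 is the shift of the median measured gene. At least 1.5-fold higher were 10 genes with scaling on hybridisation controls (12.2% of all) and 6 with centring on the median (7.63%). As much lower were 0 in both (1.96% and 2.91% of all). Relative to the shift the genes at least 1.5-fold higher were 4 on deposited values, 4 with hybridisation controls and 3 with centring. Over all measured genes these shares were 3.77%, 3.83% and 3.81%, and the counts rest on few genes. With averaged probe sets 0 genes were at least 1.5-fold lower, since Idi1 was at -0.30, and the median of fatty acid activation was -0.22; Fads1, at 0.12, left the higher genes. Lss was at 0.71 with averaged probe sets, 0.43 with the floor at the 75th percentile and 0.06 without _x_at and _s_at probe sets. All of these Lss values are lower bounds, since the floor raises the wild-type value. No gene past 1.5-fold changed sign. No paired analysis was possible because there is 1 array a genotype. Depth is not defined for arrays, and signals near the floor limit Scd1, Elovl6, Acsl3 and Tm7sf2.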
